A study of Homo sapiens with 12 samples.

Results

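The comparison described here sets the 3 arrays whose source name gives ARF-2 against the 3 arrays whose source name gives ARF-1, which are 6 of the 12 arrays in the study. Arrays were chosen by source name alone, and no measured value entered the choice. All 12 arrays were Illumina HumanHT-12 V4.0 beadchips hybridised with RNA from the human breast cancer cell line MDA-MB-231, which is of the triple-negative type, and the study asked what loss of ARF1 does to these cells in connection with the epithelial-mesenchymal transition.

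The labels describe the ARF-2 and ARF-1 arrays in the same words: cells given a pool of siRNAs against ARF1 at 100 nM with Oligofectamine, a lipid transfection reagent. A set of 3 ARF-4 arrays carries that description too, and the controls are 3 arrays of cells that received a scramble siRNA. What the number in each set's name stands for is not given in the sources used here, and the hyphen tells these sets from the genes ARF1 and ARF4. All arrays come from 1 cell line. The labels do not say whether the 3 arrays of a set came from separate cultures, so p-values measure the spread between these arrays, which may be technical.

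ARF1 is a small GTPase that recruits the COPI coat to Golgi membranes and so serves traffic between the Golgi and the endoplasmic reticulum. Cells hold several stress programmes whose target genes can be followed by their RNA. Double-stranded RNA and interferon switch on the interferon-stimulated genes through STAT and IRF factors, while NF-kB drives cytokines and chemokines. ATF4, which is made when the initiation factor eIF2 is phosphorylated, drives amino acid synthesis and transport, and HIF factors drive the response to low oxygen and glycolysis.

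Levels below are log2 signals after background correction and normalization, and differences are ARF-2 minus ARF-1 unless another pair is named. Among the 6 arrays the mean raw signal ran from 303.4 to 498.5, with ARF-2 replicate 1 the dimmest, and 39.1% to 42.1% of probes were detected. The correlation of log2 signals was 0.99 to 0.993 between an ARF-2 and an ARF-1 array, 0.991 to 0.992 within ARF-2 and 0.992 to 0.993 within ARF-1. The 6 arrays correlated with scramble arrays at 0.979 to 0.982. On the first principal component of the 6 arrays, which held 25.3% of the variance, the sets did not overlap: ARF-2 arrays were at 24.2, 5.8 and 7.7 and ARF-1 arrays at -7.5, -15.4 and -14.7.

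Few probes differed between the sets. Of 22195 probes tested with limma, 14 passed an adjusted p of 0.05, which is 0.0631% of them, with 10 higher and 4 lower on ARF-2 arrays. Counting 1 probe per gene, 9 of 12048 genes (0.0747%) passed, with 7 higher (0.0581%) and 2 lower (0.0166%). The 7 higher genes were RFX3, IFIT3, IFIT1, IL1B, GALNT2, RAB27B and HLA-DPA1, and the lower ones were TUBB1 and KISS1. At an unadjusted p below 0.05 there were 1982 probes. The median difference over all genes was 0.0045, the median size of a difference was 0.10, and 0.398% of genes lay beyond 1.5-fold. The count rested on all 6 arrays: it was 1 probe without ARF-2 replicate 1, ARF-2 replicate 2, ARF-1 replicate 1 or ARF-1 replicate 2, 3 without ARF-1 replicate 3, and 8 without ARF-2 replicate 3. With median scaling in place of quantile normalization 3 probes passed, 1 higher and 2 lower, and with cyclic loess 9 passed, 5 higher and 4 lower; over all alternatives the count ran from 1 to 133.

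The other pairs of sets gave far larger counts in the same fit. ARF-2 against scramble had 5452 probes past the threshold (24.6%) and ARF-1 against scramble had 5741 (25.9%), and both counts use the same 3 scramble arrays. ARF-4 differed from ARF-2 at 4277 probes (19.3%), from ARF-1 at 4353 (19.6%) and from scramble at 1845 (8.31%). Among the 12048 genes, 28.9% were called in ARF-2 against scramble, 30.6% in ARF-1 against scramble, 23.4% in ARF-4 against ARF-2, 23.9% in ARF-4 against ARF-1 and 9.79% in ARF-4 against scramble. In these pairs 4.02% to 13.1% of genes lay beyond 1.5-fold.

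**Figure D1:**
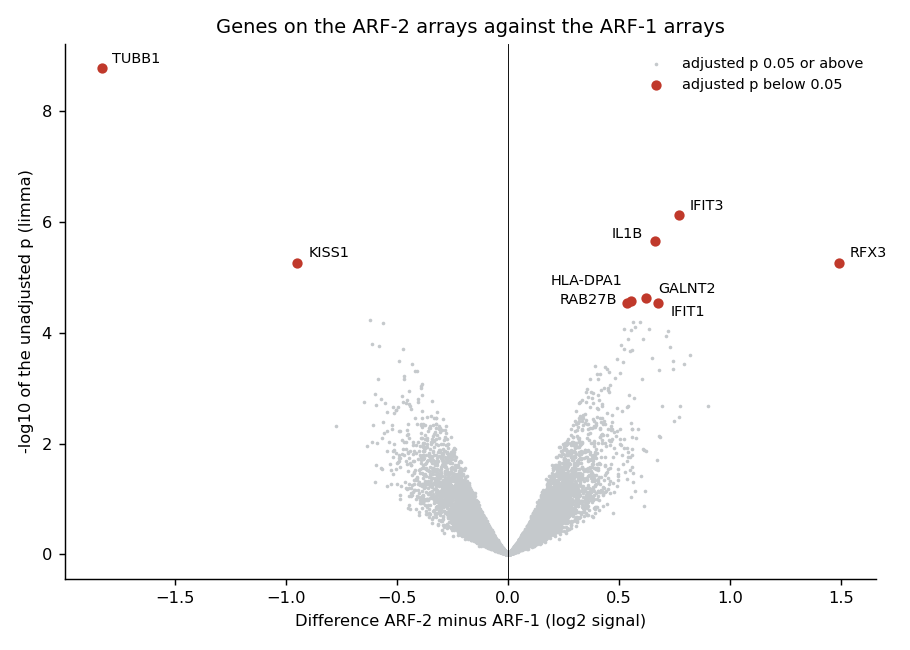
Each point is 1 of 12048 genes, with its difference ARF-2 minus ARF-1 in log2 signal on the x axis and -log10 of the unadjusted limma p on the y axis. The 9 genes past an adjusted p of 0.05 are named; TUBB1 stands apart at -1.83, and most other genes lie close to 0.

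ARF1 itself was not lower on any of the siRNA sets by the probe that stands for it. That probe, ILMN_1802203, read 11.87, 11.87 and 11.83 on ARF-2 arrays, 11.64, 11.79 and 11.72 on ARF-1 arrays, and 11.59, 11.71 and 11.63 on scramble arrays. All 3 ARF-2 arrays lay above all 3 ARF-1 arrays, by 0.14 ± 0.08 (SE), with a 95% interval of -0.04 to 0.32 and an adjusted p of 0.646. An exact permutation test over the 20 splits of 3 against 3, two-sided, gave 0.1, the smallest p this design allows. The other ARF1 probes gave -0.14 (adjusted p = 0.765) and 0.05 (adjusted p = 0.955). Against scramble, ARF1 differed by 0.21 on ARF-2 arrays (adjusted p = 0.0758) and by 0.08 on ARF-1 arrays (adjusted p = 0.554). The third probe, ILMN_1661458, which was detected on 2 ARF-2, 1 ARF-1 and 2 scramble arrays, gave -0.23 on ARF-2 arrays (adjusted p = 0.34) and -0.28 on ARF-1 arrays (adjusted p = 0.236) against scramble. The sets are therefore named by their labels throughout, since no ARF1 probe was called lower than scramble.

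The related GTPases ARF3, ARF4, ARF5 and ARF6 did not pass the test either. Their differences were -0.0001 for ARF3, -0.19 for ARF4, -0.09 for ARF5 and -0.02 for ARF6, with ARF4 the only one whose sets did not overlap. ARF3 and ARF6 change sign in several of the alternative settings. Of 32 tested members of the list of ARF GTPases and their regulators none was called, and of 35 COPI coat and Golgi genes none was called. Over all genes 0.0747% were called. In the ARF list 3 (9.38%) had all ARF-2 arrays above all ARF-1 arrays, and 2 (6.25%) had them all below. In the COPI list these were 2 (5.71%) and 5 (14.3%), beside 8.53% and 7.27% of all genes. Over other scalings the COPI count below was 1 to 5. ARCN1, the delta subunit of the COPI coat, had the lowest p of the COPI list at a difference of 0.24 (adjusted p = 0.402).

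TUBB1, a beta-tubulin best known from platelets and megakaryocytes, fell furthest. Its probe ILMN_1710280 read 5.19, 4.78 and 4.90 on ARF-2 arrays against 6.71, 6.81 and 6.84 on ARF-1 arrays. ARF-4 arrays read 4.43, 4.39 and 4.41, and scramble arrays 4.49, 4.35 and 4.66. The ARF-1 arrays were thus the high ones, and the ARF-2 arrays lay just above the level of scramble, with the probe detected on 2 of the 3 ARF-2 arrays, all 3 ARF-1 arrays and none of the ARF-4 or scramble arrays. The difference was -1.83 ± 0.12 (SE), a 3.56-fold lower signal on ARF-2 arrays (adjusted p = 3.74e-05). TUBB1 passed the threshold in all 18 alternative settings that tested it. Since the probe was detected on no scramble array, its distance from scramble is a bound, taken from the lowest detected signal of each scramble array: TUBB1 was at least 1.03-fold higher on ARF-2 arrays (mean level 4.96 against 4.50 in scramble, adjusted p = 0.013) and at least 3.65-fold higher on ARF-1 arrays (6.79 against 4.50, adjusted p = 2.94e-07).

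KISS1, which encodes the kisspeptin precursor and was first described as a suppressor of metastasis, also fell. It read 6.57, 6.18 and 6.49 on ARF-2 arrays, 7.25, 7.49 and 7.35 on ARF-1 arrays, and 6.61, 6.95 and 6.76 on scramble arrays. All ARF-2 arrays were below all ARF-1 arrays and also below all scramble arrays. The difference was -0.95 ± 0.12 (SE), a 1.93-fold lower signal (adjusted p = 0.0201). ARF-1 was above scramble by 0.59 (adjusted p = 0.00397), while ARF-2 against scramble gave -0.36 (adjusted p = 0.0553).

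RFX3, a transcription factor of ciliogenesis, had the largest difference among the called higher genes. Its probe ILMN_1851453 read 6.98, 7.14 and 6.52 on ARF-2 arrays and 5.36, 5.29 and 5.51 on ARF-1 arrays, with no overlap. Scramble arrays read 5.17, 4.57 and 5.10. The difference was 1.49 ± 0.20 (SE), a 2.82-fold higher signal (adjusted p = 0.0201), but the other RFX3 probes gave 0.11 (adjusted p = 0.902) and 0.31 (adjusted p = 0.78). The result for RFX3 therefore rests on 1 probe of 3.

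IL1B, the cytokine interleukin-1 beta, rose. It read 9.92, 9.98 and 9.89 on ARF-2 arrays, 9.30, 9.26 and 9.25 on ARF-1 arrays, and 7.89, 7.86 and 7.75 on scramble arrays. Both siRNA sets lay clear of scramble, with ARF-2 the highest. The difference was 0.66 ± 0.08 (SE), a 1.58-fold higher signal (adjusted p = 0.0125). Against scramble the difference was 2.10 on ARF-2 arrays (adjusted p = 4.49e-08) and 1.43 on ARF-1 arrays (adjusted p = 4.45e-07).

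GALNT2, a Golgi enzyme that starts O-glycan chains, read 6.72, 6.91 and 6.86 on ARF-2 arrays against 6.21, 6.08 and 6.34 on ARF-1 arrays. RAB27B, a small GTPase of secretory granule and exosome release, read 7.79, 7.68 and 7.74 on ARF-2 arrays against 7.25, 7.21 and 7.08 on ARF-1 arrays. Neither gene's sets overlapped. GALNT2 rose by 0.62 ± 0.09 (SE), or 1.54-fold, and RAB27B by 0.56 ± 0.09, or 1.47-fold, each at an adjusted p of 0.0464. A second RAB27B probe gave -0.06 (adjusted p = 0.956). RAB27B was below scramble on ARF-1 arrays by -0.36 (adjusted p = 0.00844), and GALNT2 was above scramble on ARF-2 arrays by 0.36 (adjusted p = 0.0152).

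**Figure D2:**
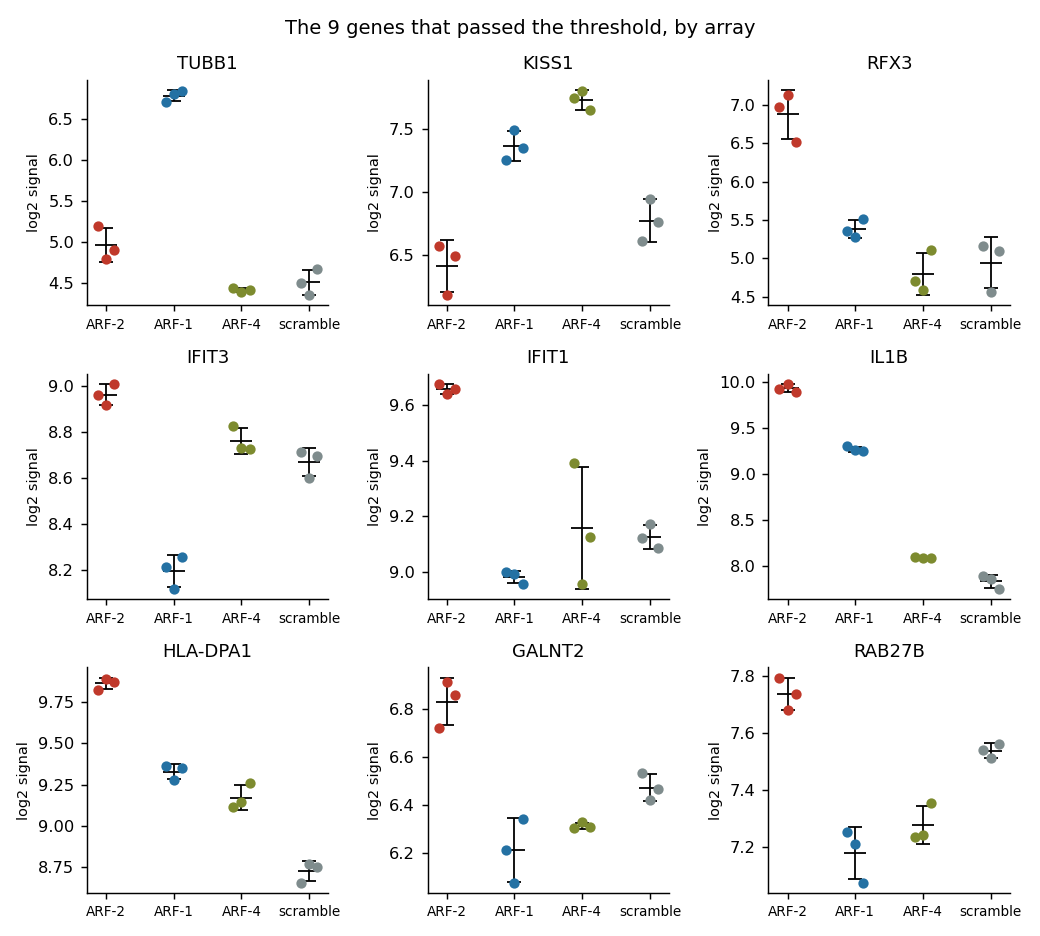
Log2 signal (y axis) of the 9 genes past the threshold on each array of ARF-2, ARF-1, ARF-4 and scramble; each point is 1 array, and the bars are the mean and SD of 3 arrays. The ARF-2 and ARF-1 points do not overlap in any panel, and in TUBB1 the ARF-1 arrays at 6.71 to 6.84 are the high ones.

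Apart from TUBB1, the called genes passed in 6 to 12 of the 18 or 19 alternative settings that tested them. All 14 called probes kept their direction in every setting that tested them. Their sets did not overlap, so leaving out 1 array could not turn the direction. The other 5 probes past the threshold do not stand for a gene by the rule used here. A GSDMB probe gave -0.86 (adjusted p = 0.029) while the probe that stands for GSDMB, a gasdermin, gave -0.19. A MAGEB2 probe gave 0.70 (adjusted p = 0.0464), and the probe that stands for this cancer-testis antigen gave 0.73 (adjusted p = 0.107). The remaining 3 probes have no listed gene. ILMN_1748303 gave 0.80 (adjusted p = 0.0125), ILMN_3280565 gave 0.71 (adjusted p = 0.029) and ILMN_3305273 gave -0.69 (adjusted p = 0.0329).

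Single calls being few, groups of genes were described by 3 plain measures: the calls, the median difference, and the share of tested members whose 3 ARF-2 arrays all lay above, or all below, the 3 ARF-1 arrays. Over all 12048 genes 1028 (8.53%) were separated upward in this sense and 876 (7.27%) downward. Median scaling gave 406 (3.37%) and 698 (5.79%). Shares are set beside these values and carry no p.

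Interferon-stimulated genes stood higher on ARF-2 arrays. Of 50 listed genes 43 passed the filter on low signals; 2 were called, both higher, 18 (41.9%) were separated upward and 2 (4.65%) downward, against 8.53% and 7.27% of all genes. The median difference was 0.16, with 32 members above 0 and 11 below. The mean level of the 43 genes was 8.11, 8.14 and 8.10 on ARF-2 arrays, 7.97, 7.92 and 7.94 on ARF-1 arrays, and 7.94, 8.00 and 7.96 on scramble arrays. On this mean the ARF-2 arrays were above the other sets, and the ARF-1 and scramble arrays overlapped.

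IFIT3, which binds IFIT1 and strengthens its hold on foreign RNA, rose. It read 8.96, 8.92 and 9.01 on ARF-2 arrays, 8.21, 8.12 and 8.25 on ARF-1 arrays, and 8.71, 8.60 and 8.70 on scramble arrays. Scramble lay between the sets without touching either. The difference was 0.77 ± 0.08 (SE), or 1.70-fold (adjusted p = 0.00846), and the other probes of the gene gave 0.52 (adjusted p = 0.125) and 0.52 (adjusted p = 0.34). Against scramble IFIT3 was higher on ARF-2 arrays by 0.29 (adjusted p = 0.0225) and lower on ARF-1 arrays, by -0.48 (adjusted p = 0.00132).

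IFIT1, which binds RNA that lacks the methylated cap of host messages, rose as well. It read 9.68, 9.64 and 9.66 on ARF-2 arrays, 9.00, 8.99 and 8.96 on ARF-1 arrays, and 9.12, 9.17 and 9.09 on scramble arrays. ARF-1 arrays were the lowest of these 3 groups and ARF-2 arrays the highest. The difference was 0.68 ± 0.10 (SE), or 1.60-fold (adjusted p = 0.0464). A second IFIT1 probe gave 0.26 (adjusted p = 0.675) with overlapping sets.

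Other interferon-stimulated genes had differences of similar size that did not pass. ISG15, a ubiquitin-like modifier, read 11.10, 11.30 and 11.07 on ARF-2 arrays against 10.53, 10.54 and 10.69 on ARF-1 arrays, a difference of 0.57 (adjusted p = 0.0785). IFIT2, a relative of IFIT1, read 8.82, 8.93 and 9.07 against 8.40, 8.50 and 8.36, a difference of 0.52 (adjusted p = 0.0785). Both were separated, yet their place relative to scramble differed: ISG15 was above scramble on ARF-2 arrays by 0.56 (adjusted p = 0.00145) and at -0.01 on ARF-1 arrays (adjusted p = 0.949). IFIT2 was at -0.21 on ARF-2 arrays (adjusted p = 0.116) and at -0.73 on ARF-1 arrays (adjusted p = 0.000132).

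OASL, an oligoadenylate synthetase-like protein, differed by 0.61 (adjusted p = 0.0946) and OAS2, which makes the second messenger that activates RNase L, by 0.52 (adjusted p = 0.154). Over 19 alternative settings the OAS2 difference ran from 0.12 to 0.61. SAMD9, a restriction factor for poxviruses, and HERC6 and HERC5, ubiquitin ligase family members, differed by 0.40, 0.46 and 0.42. GBP2, a guanylate-binding protein, differed by 0.29 (adjusted p = 0.336), a small step beside its distance from scramble of 1.90 on ARF-2 arrays and 1.61 on ARF-1 arrays. The 18 genes separated upward ranged from 0.09 to 0.77. Against scramble, 13 of the 43 tested members were called above and 7 below on ARF-2 arrays, and 9 above and 10 below on ARF-1 arrays, where 28.9% and 30.6% of all genes were called in either direction. The genes separated downward were IFI6, at -0.29, and IRF1, an activator of interferon genes, at -0.16.

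The promoters of these genes are known for the interferon-stimulated response element, which was looked for in RefSeq windows (GRCh38.p14) of 250 bases before to 50 after each gene's start. The motif GAAANNGAA, or TTCNNTTTC on the other strand, was found in 8.29% of 27305 windows and in 25 of the 37 windows (67.6%) that matched a tested interferon-stimulated gene. Matching letters describe the list, and no binding was measured. The called pair and ISG15 are shown with flanks because they carry the result for this group; the capitals mark the motif, which begins 121, 115 and 107 bases before the start. IFIT3 and IFIT1 hold 2 matches each and ISG15 holds 3 that overlap one another, of which 1 is marked. The stretches lie on the plus strand at chr10:89327846-89327914, chr10:89392478-89392546 and chr1:1013360-1013428.
IFIT3: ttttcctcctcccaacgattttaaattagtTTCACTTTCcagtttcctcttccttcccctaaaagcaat
IFIT1: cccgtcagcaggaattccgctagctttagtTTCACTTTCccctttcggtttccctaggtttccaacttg
ISG15: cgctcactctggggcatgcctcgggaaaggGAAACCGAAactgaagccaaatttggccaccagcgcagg
IFIT3 and IFIT1 hold the same 9 letters, TTCACTTTC, in the same orientation.

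The sensors that lead to interferon stood closer to the background. Of 22 tested genes of RNA sensing and interferon induction none was called, and the median difference was 0.10. Of them 5 (22.7%) were separated upward and 1 (4.55%) downward, beside 8.53% and 7.27% of all genes. Over other scalings the upward count was 1 to 5. The list shares 4 genes with the interferon-stimulated list, which is 18.2% of its tested members and 9.3% of that list's. RIGI, the cytoplasmic sensor of RNA ends, differed by 0.29 (adjusted p = 0.564), and IRF3, the factor that the sensors activate, by 0.21 (adjusted p = 0.558). Of 17 genes of antigen presentation on MHC class I none was called, 4 (23.5%) were separated upward and 1 (5.88%) downward. PSMB9 and PSMB10, subunits of the immunoproteasome, differed by 0.34 (adjusted p = 0.554) and 0.26 (adjusted p = 0.39).

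**Figure D3:**
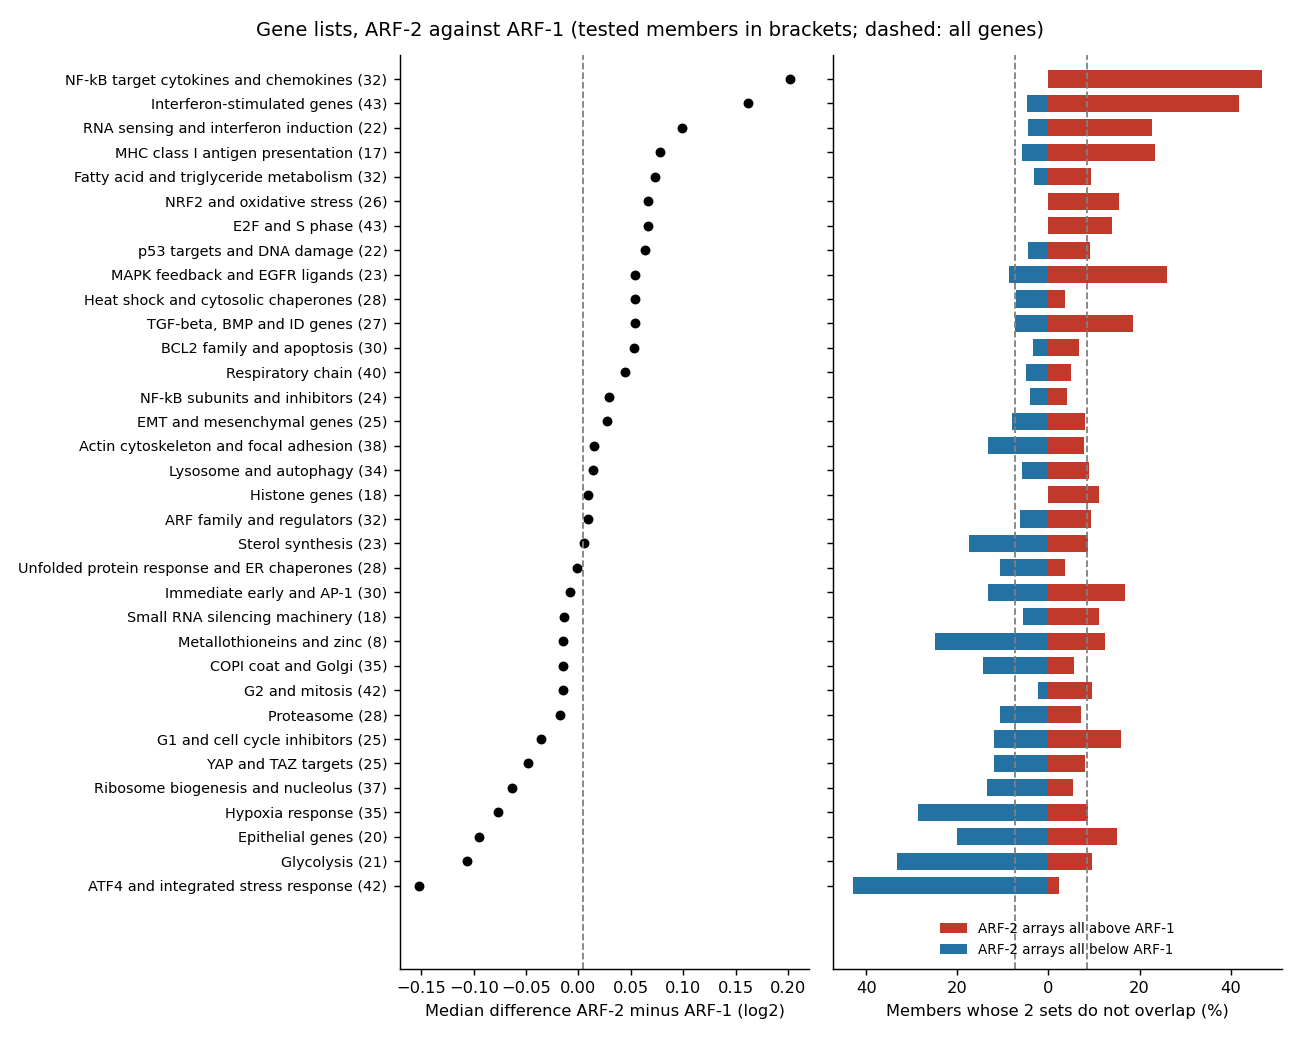
Left, the median difference ARF-2 minus ARF-1 (log2) of 34 gene lists, with the number of tested members in brackets; right, the percentage of members whose 3 ARF-2 arrays all lay above or all below the 3 ARF-1 arrays. Dashed lines give the same over all genes; NF-kB target cytokines (0.20) and interferon-stimulated genes (0.16) are at the top, and the ATF4 list (-0.15) is at the bottom.

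Target cytokines and chemokines of NF-kB stood higher on ARF-2 arrays as a group. Of 40 listed genes 32 were tested, and 1, IL1B, was called. Of the 32, 15 (46.9%) were separated upward and none downward, beside 8.53% and 7.27% of all genes. The median difference was 0.20, with 26 members above 0 and 6 below. Their mean level was 8.06, 8.08 and 8.04 on ARF-2 arrays, 7.84, 7.79 and 7.79 on ARF-1 arrays, and 7.51, 7.54 and 7.53 on scramble arrays. The sets kept the order ARF-2, ARF-1, scramble with no overlap.

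Beside IL1B, the neutrophil growth factor CSF3 and PTGS2, the inducible prostaglandin synthase, came closest to the threshold. CSF3 read 8.09, 8.18 and 7.98 on ARF-2 arrays against 7.60, 7.46 and 7.41 on ARF-1 arrays, a difference of 0.60 (adjusted p = 0.075). PTGS2 read 9.34, 9.50 and 9.35 against 8.92, 8.84 and 8.75, a difference of 0.56 (adjusted p = 0.075). In neither did the sets overlap, and a second probe gave 0.58 (adjusted p = 0.171) for CSF3 and 0.54 (adjusted p = 0.304) for PTGS2. CCL20, which attracts dendritic and T cells, read 8.51, 8.72 and 8.72 on ARF-2 arrays against 7.74, 8.14 and 7.94 on ARF-1 arrays, a difference of 0.71 (adjusted p = 0.0946).

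The remaining members named here were chosen after their values were seen. IL6, the cytokine interleukin-6, read 10.83, 10.95 and 10.82 on ARF-2 arrays against 10.17, 10.33 and 10.46 on ARF-1 arrays, a difference of 0.55 (adjusted p = 0.114). CXCL1, a neutrophil chemokine, read 10.78, 10.75 and 10.39 against 9.51, 9.92 and 10.03, a difference of 0.82 (adjusted p = 0.129), the largest of the list but with a wide spread in both sets. CXCL8 and CXCL2, chemokines of the same family, differed by 0.45 (adjusted p = 0.225) and 0.47 (adjusted p = 0.336). LCN2, an iron-binding acute phase protein, differed by 0.56 (adjusted p = 0.114). The 15 separated genes ranged from 0.15 to 0.82. Against scramble 15 of the 32 tested members were called above and 3 below on ARF-2 arrays, and 12 above and 4 below on ARF-1 arrays, beside 28.9% and 30.6% of all genes in either direction. CXCL1 was below scramble on ARF-1 arrays, at -0.52 (adjusted p = 0.0321).

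The NF-kB motif GGGANTTTC, or GAAANTCCC on the other strand, was found in 1.3% of the 27305 RefSeq windows. A window was matched for 23 of the 32 tested cytokine genes, a smaller part than of the other lists searched, so no share is given for the list. Of 11 separated members with a window 3 held the motif and 8 did not. The 3 are shown because they are the separated members whose windows held the motif, and no binding was measured. CXCL1 and CXCL2 are close paralogs with nearly the same stretch. The capitals mark the motif, which begins 73, 79 and 78 bases before the start. The windows are chr7:22727097-22727165 on the plus strand, chr4:73869284-73869352 on the plus strand and chr4:74099235-74099303 on the minus strand.
IL6: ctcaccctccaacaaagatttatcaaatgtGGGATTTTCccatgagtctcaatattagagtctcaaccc
CXCL1: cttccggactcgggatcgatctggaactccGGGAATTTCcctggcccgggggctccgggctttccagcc
CXCL2: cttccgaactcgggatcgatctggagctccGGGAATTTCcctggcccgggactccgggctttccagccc

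The genes of the NF-kB machinery itself were near the background. Of 24 tested subunits, inhibitors and upstream factors none was called, 1 (4.17%) was separated upward and 1 (4.17%) downward, beside 8.53% and 7.27% of all genes, and the median difference was 0.03. Over other scalings the upward count was 0 to 3 and the downward count 1 to 3. NFKBIB, an inhibitor that holds NF-kB in the cytoplasm, read 4.92, 5.19 and 5.09 on ARF-2 arrays against 5.62, 5.55 and 5.55 on ARF-1 arrays. The difference was -0.51 (adjusted p = 0.294), but its other probe gave 0.12. The NFKBIB probe was detected on 2 of the 3 ARF-2 arrays. TNFRSF1B, RELB and TRAF1, the next members by p, differed by 0.39, 0.26 and 0.32 with overlapping sets (adjusted p = 0.52, 0.544 and 0.55). RELB was below scramble in both sets, at -1.32 on ARF-2 arrays (adjusted p = 1.23e-05) and -1.57 on ARF-1 arrays (adjusted p = 3.35e-06). NFKBIZ, an inducible regulator, differed by 0.17 (adjusted p = 0.661). NFKBIA, the best known inhibitor and itself a target of NF-kB, was at 0.01, and TNFAIP3, a feedback inhibitor, at -0.03; both were named after their values were seen.

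Genes of the ATF4 pathway, the transcriptional arm of the integrated stress response, stood lower on ARF-2 arrays. Of 48 listed genes 42 were tested, and none was called. Of the 42, 1 (2.38%) was separated upward and 18 (42.9%) downward, beside 8.53% and 7.27% of all genes. The median difference was -0.15, with 7 members above 0 and 35 below. Their mean level was 9.09, 9.08 and 9.04 on ARF-2 arrays, 9.20, 9.29 and 9.24 on ARF-1 arrays, and 8.82, 8.82 and 8.84 on scramble arrays. ARF-2 lay between ARF-1 and scramble with no overlap.

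Enzymes of amino acid synthesis had the largest differences. ASNS, asparagine synthetase, read 10.12, 10.26 and 10.13 on ARF-2 arrays, 10.80, 10.75 and 10.82 on ARF-1 arrays, and 9.32, 9.14 and 9.36 on scramble arrays. Its difference was -0.62 ± 0.10 (SE; adjusted p = 0.075), and a second probe gave -0.45 (adjusted p = 0.225). Against scramble ASNS was higher in both sets, by 0.89 on ARF-2 arrays (adjusted p = 9.04e-05) and by 1.51 on ARF-1 arrays (adjusted p = 2.13e-06).

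PSAT1, the aminotransferase of serine synthesis, read 10.02, 10.03 and 10.03 on ARF-2 arrays against 10.56, 10.48 and 10.44 on ARF-1 arrays, a difference of -0.47 (adjusted p = 0.113). PSPH and PHGDH, the other enzymes of that path, differed by -0.50 (adjusted p = 0.282) and -0.33 (adjusted p = 0.348). All 3 serine synthesis genes were separated downward. CTH, which makes cysteine from cystathionine, read 7.10, 7.27 and 7.12 against 7.88, 7.82 and 7.54, a difference of -0.59 (adjusted p = 0.184). PCK2, the mitochondrial phosphoenolpyruvate carboxykinase, differed by -0.47 (adjusted p = 0.184).

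Transfer RNA synthetases SARS1, MARS1 and GARS1 differed by -0.46, -0.25 and -0.22, and TRIB3, a pseudokinase that restrains ATF4, by -0.26. ATF4 itself differed by -0.12 (adjusted p = 0.712), while DDIT3, the factor CHOP that ATF4 induces, was at -0.06 with overlapping sets. The 18 genes separated downward ranged from -0.62 to -0.12. Against scramble 15 of the 42 tested members were called above and 5 below on ARF-2 arrays, and 20 above and 4 below on ARF-1 arrays, beside 28.9% and 30.6% of all genes in either direction. The member separated upward was VEGFA, the angiogenic growth factor, which also belongs to the hypoxia list.

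The amino acid response motif TGATGNAA, or TTNCATCA on the other strand, was found in 3.67% of all windows and in 7 of the 34 windows (20.6%) that matched a tested ATF4 gene. Among the 16 windows of members separated downward 3 (18.8%) held it, those of ASNS, MARS1 and SLC3A2. The ASNS window is shown because ASNS had the lowest p of the list. The capitals mark the motif, which begins 68 bases before the start. It lies at chr7:97872439-97872506 on the minus strand.
ASNS: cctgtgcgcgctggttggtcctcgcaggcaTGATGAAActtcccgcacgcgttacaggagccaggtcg

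**Figure D4:**
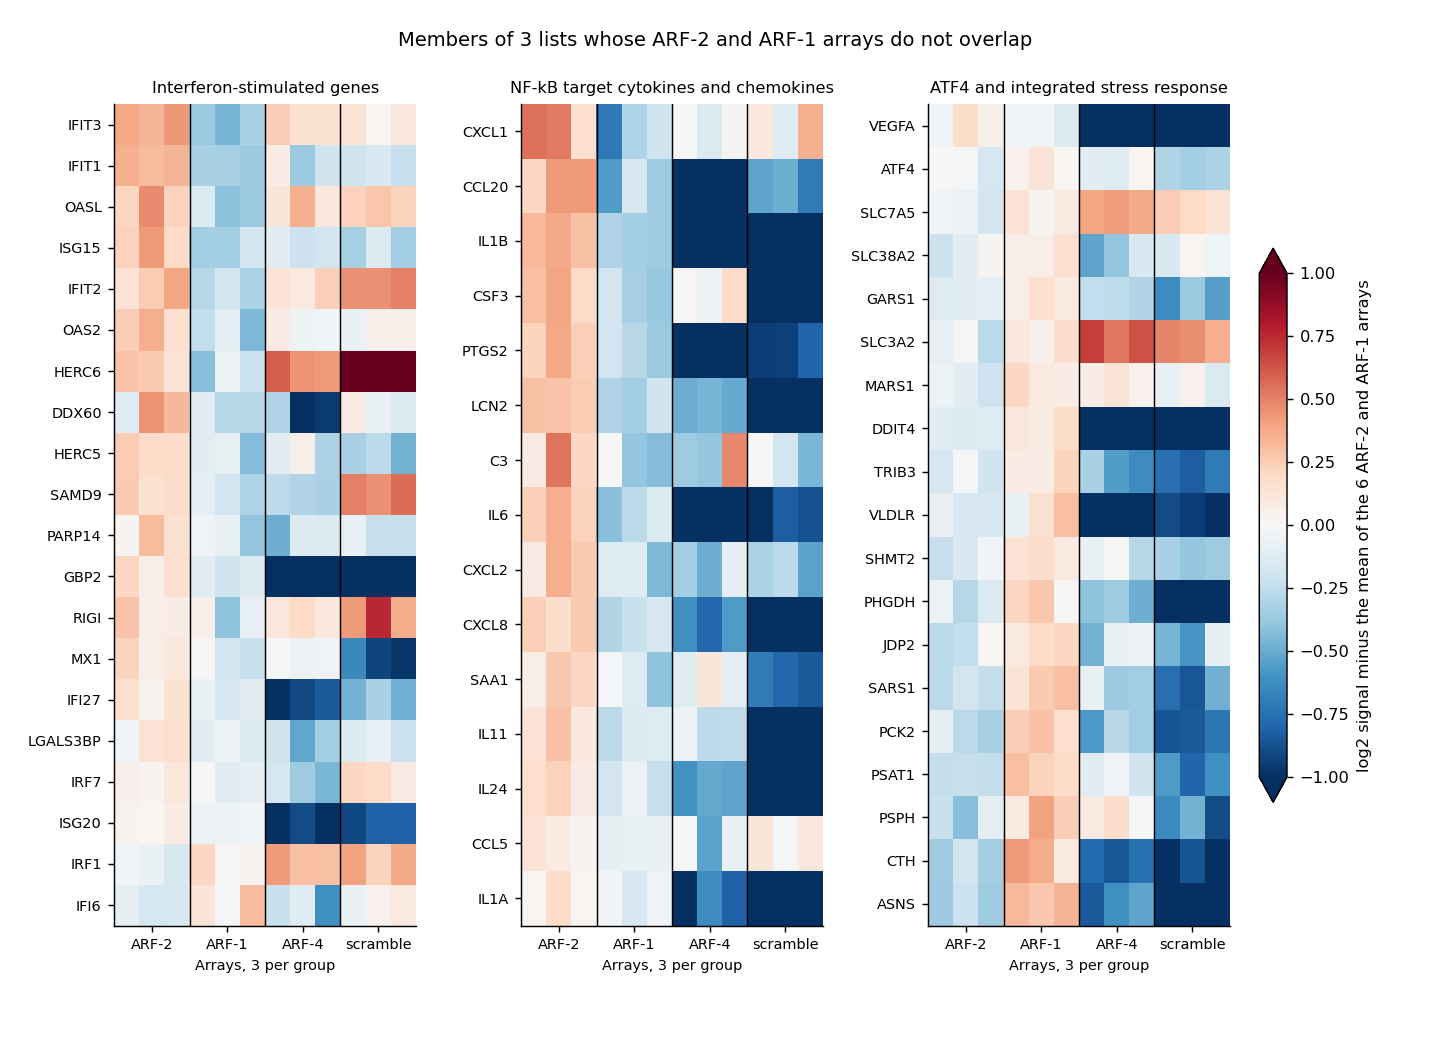
Members of the interferon, NF-kB cytokine and ATF4 lists whose ARF-2 and ARF-1 arrays do not overlap, 1 row per gene and 1 column per array; colour is log2 signal minus the gene's mean over the 6 ARF-2 and ARF-1 arrays, and values beyond 1 take the end colour. ARF-4 and scramble columns lie below the ARF-2 and ARF-1 columns for most NF-kB cytokines, on either side for interferon genes, and mostly below for ATF4 genes such as ASNS.

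Genes of the hypoxia response and of glycolysis also stood lower on ARF-2 arrays, by less. Of 35 tested hypoxia genes none was called, and the median was -0.08. Of them 3 (8.57%) were separated upward and 10 (28.6%) downward, beside 8.53% and 7.27% of all genes. The mean level was 8.81, 8.76 and 8.83 on ARF-2 arrays, 8.89, 8.86 and 8.91 on ARF-1 arrays, 8.23, 8.22 and 8.19 on ARF-4 arrays, and 8.47, 8.47 and 8.43 on scramble arrays. ARF-2 and ARF-1 arrays lay close together and above the other groups. The list shares 4 genes with the ATF4 list, 11.4% of its tested members and 9.52% of that list's.

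BNIP3L, a receptor for the removal of mitochondria, read 9.72, 9.74 and 9.85 on ARF-2 arrays against 10.17, 10.21 and 10.10 on ARF-1 arrays, a difference of -0.39 (adjusted p = 0.224). Its second probe gave -0.22 with overlapping sets. DDIT4, an inhibitor of mTORC1 that both HIF and ATF4 induce, read 11.54, 11.52 and 11.53 against 11.77, 11.74 and 11.84, a difference of -0.25 (adjusted p = 0.378). ANKRD37, a small HIF target, differed by -0.32 (adjusted p = 0.368) and ZNF395, a zinc finger factor, by -0.31 (adjusted p = 0.42). The 10 genes ranged from -0.39 to -0.18. Against scramble 17 of the 35 tested members were called above and 2 below on ARF-2 arrays, and 19 above and 2 below on ARF-1 arrays, beside 28.9% and 30.6% of all genes in either direction. HIF1A, the oxygen-regulated subunit of HIF, was separated upward at 0.21 (adjusted p = 0.64), and so was VEGFA at 0.14 (adjusted p = 0.678).

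Of 21 tested glycolysis genes none was called, and the median was -0.11. Of them 2 (9.52%) were separated upward and 7 (33.3%) downward, beside 8.53% and 7.27% of all genes. PGAM1, phosphoglycerate mutase, read 11.37, 11.26 and 11.22 on ARF-2 arrays against 11.68, 11.74 and 11.67 on ARF-1 arrays, a difference of -0.42 (adjusted p = 0.171), but its other probe gave -0.03 with overlapping sets. ALDOC, an aldolase, and GPI, glucose-6-phosphate isomerase, each differed by -0.24. LDHA, which makes lactate, differed by -0.17 (adjusted p = 0.632). HK1, a hexokinase, was separated upward at 0.18 (adjusted p = 0.558), while another of its probes gave -0.30.

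The hypoxia motif ACGTG, or CACGT on the other strand, is short, and 21.6% of all windows held it. Among the 9623 windows that matched a tested gene the share was 26.9%. The motif was found in 14 of 29 matched hypoxia windows (48.3%) and in 9 of 20 matched glycolysis windows (45.0%).

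**Figure D5:**
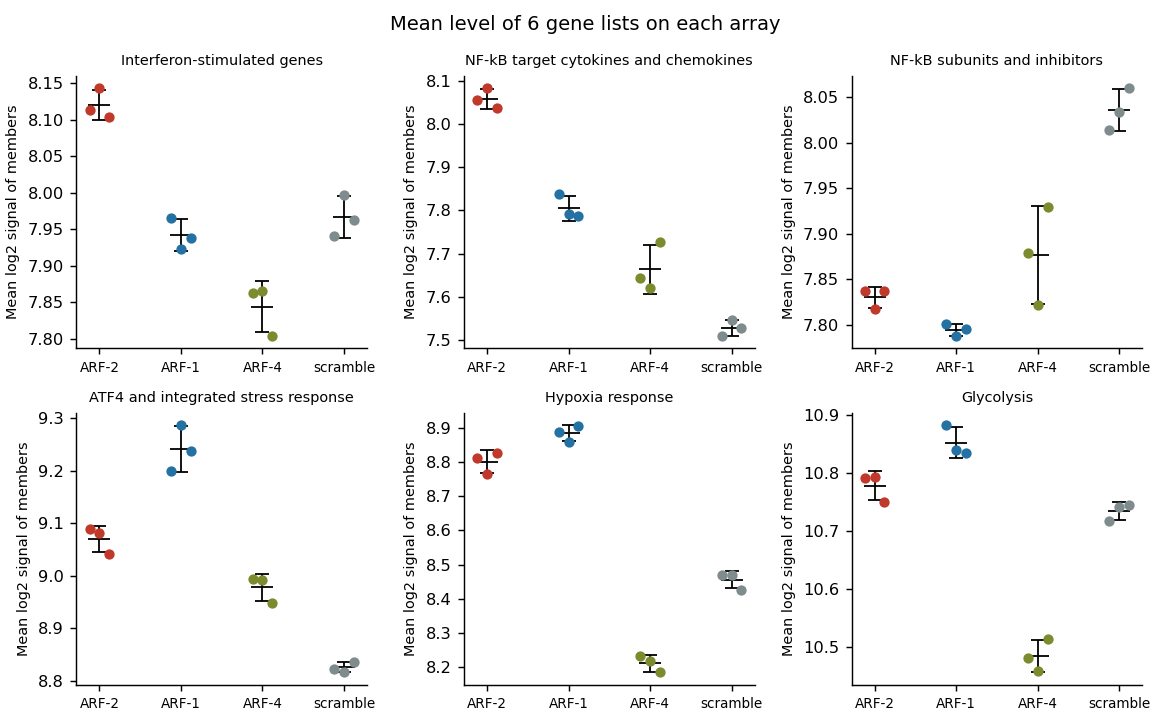
Mean log2 signal over the tested members of 6 lists (y axis, a separate range in each panel) on each array of ARF-2, ARF-1, ARF-4 and scramble; points are arrays and bars are the mean and SD of 3 arrays. ARF-2 lies above ARF-1 for the interferon and NF-kB lists and below it for the ATF4, hypoxia and glycolysis lists, while the gap for NF-kB subunits is the smallest of the 6.

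Other stress lists stood nearer the background, in which 8.53% of all genes were separated upward and 7.27% downward. Of 28 unfolded protein response and ER chaperone genes 1 (3.57%) was separated upward and 3 (10.7%) downward, with a median of -0.0018; HSPA5, the ER chaperone BiP, was at -0.17 with overlapping sets (adjusted p = 0.601). Of 28 heat shock and cytosolic chaperone genes 1 (3.57%) was separated upward and 2 (7.14%) downward. HSPA6, an inducible HSP70, was 1 of those separated downward but was not detected on any array of either set. Of 26 NRF2 and oxidative stress genes 4 (15.4%) were separated upward and none downward, and over other scalings the upward count was 0 to 4. KEAP1 had the lowest p of the list, at 0.26 (adjusted p = 0.39). The others were HMOX1, heme oxygenase, at 0.44 (adjusted p = 0.511), NQO1, a quinone reductase, at 0.26 (adjusted p = 0.472), and SQSTM1 at 0.17 (adjusted p = 0.603). None of these 3 lists had a called gene.

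Markers of the cell line and of other cell types were read beside these lists. Of 8 MDA-MB-231 markers 7 were detected and tested, with a mean level of 10.79 to 10.84 on ARF-2 arrays and 10.81 to 10.88 on ARF-1 arrays. Of 12 leukocyte markers 5 passed the filter and the defining genes PTPRC, CD3D, CD3E and CD163 did not. The mean level of those 5 was 6.60 to 6.65 on ARF-2 arrays and 6.55 to 6.78 on ARF-1 arrays. Their median difference was -0.08, with 2 above 0 and 3 below. CD14, a monocyte marker, was separated upward at 0.47 (adjusted p = 0.327), and CD79A, a chain of the B cell receptor, downward at -0.40 (adjusted p = 0.511). Of 11 tested luminal breast markers 3 (27.3%), AGR2, SPDEF and TFF3, were separated upward and 1 (9.09%), KRT19, downward. Over all genes these shares were 8.53% and 7.27%, and over other scalings the luminal upward count was 0 to 3. Of 3 tested fibroblast and adipocyte markers PDGFRB was separated downward, at -0.39 (adjusted p = 0.38), and of 2 tested basal markers none was separated. Of 7 endothelial markers only PECAM1 was tested, at 0.32 (adjusted p = 0.275), and no marker of any type was called.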

How the data were processed

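Each of the 12 arrays, Illumina HumanHT-12 V4.0 beadchips, measured RNA of 1 MDA-MB-231 sample, with 3 arrays in each of the groups ARF-2, ARF-1, ARF-4 and scramble, assigned from the source names. The deposited files hold a signal intensity (linear, not normalized) and a detection p-value for every probe and array; BeadStudio 2.3.47 is named in the submitters' processing notes. A further table of the authors' processed intensity values was deposited, and its log2 values equal quantile normalized signals to within 6.06e-07. Of 47323 probes, 12 had empty values; 1 gene symbol was listed for 30113 probes, several for 8 and none for 17202. Arrays hold no read depth, so their number limits the precision.

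Here the signals were corrected with a normal-exponential model from the detection p-values (offset 16), quantile normalized and taken to log2 in limma 3.58.1 under R 4.3.3. Probes detected at p below 0.05 on at least 3 of 12 arrays were kept, which left 22195 probes and 12048 genes; a gene was read by its kept probe of highest mean. Means of 4 groups were fitted, with 2-sided moderated tests and Benjamini-Hochberg adjustment over all kept probes. Of 1205 list entries 1002 passed the filter. Lists got no set test.

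Named were ARF1, ARF3, ARF4, ARF5 and ARF6; genes past the threshold with separated sets, filled up to 10 each way by smallest p; up to 4 members of each list by smallest p; and called genes opposite in sign against scramble. The members, lists and rules were chosen with earlier results of these data known. In simulated data 200 of 22195 probes were changed, with independent noise drawn from the fit's own spread. The procedure recovered 52.2% of 1.5-fold, 89.6% of 2-fold and 100% of 4-fold changes, with 9 false calls of 170. The data gave 14 calls, and fewer calls make the adjusted threshold stricter, so these shares do not carry over to the data. Alternatives covered background correction, normalization, filter, weights, variance prior, the arrays fitted, replicate number and each array left out. Promoter windows are RefSeq's, GRCh38.p14, and the first window listed for a gene was used; motif letters were set after the lists' values were seen. Figures were drawn with matplotlib 3.10.9.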

Additional observations from a re-analysis of the deposited data

Results flagged for a closer look

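IFIT3 was the only gene past the threshold in ARF-2 minus ARF-1 whose differences from scramble passed in both sets with opposite signs. Its level was above scramble by 0.29 on ARF-2 arrays (adjusted p = 0.0225) and below it, at -0.48, on ARF-1 arrays (adjusted p = 0.00132). The test of the difference between these 2 effects is the comparison of the sets itself, 0.77 ± 0.08 (SE; limma, adjusted p = 0.00846). Over its alternatives that adjusted p ran from 4.06e-06 to 0.237, and IFIT3 passed in 12 of 19. The other IFIT3 probes differed in the same direction by 0.52 each, at adjusted p-values of 0.125 and 0.34.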

How the results depend on the processing

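The count of probes past the threshold, 14, was 133 without background correction, 57 with an offset of 50, 109 on the authors' value table, 72 with a trended and robust variance prior and 48 with a detection p below 0.01 on all arrays. It was 3 with median scaling, 9 with cyclic loess, and 1 both with the 6 arrays fitted alone and with the 6 arrays normalized and fitted alone. The count of genes, 9, was 95, 40, 77, 51 and 37 in the first of these, then 3, 5, 1 and 1, and 29 with the mean of a gene's probes. Leaving out 1 array gave 1 to 8 probes and 1 to 4 genes; no probe filter gave 14 probes and array weights 12. The cause of these shifts was not tested.

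The replicate block gave 3 probes and 2 genes. Same-numbered arrays of ARF-2 and ARF-1 did not deviate together (correlations of 0.0132, -0.0223 and 0.013), and 2 of 6 arrays matched their own number best, so the numbers do not pair them.

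ARF1 gave -0.14 by its probe ILMN_2330948, 0.02 as the mean of its probes and 0.10 to 0.18 in settings with its usual probe. ARF3 was 0.0003, 0.0001, 0.0012 and 0.0002 without background correction, with offset 50, with cyclic loess and on the authors' table, and ran from -0.12 to 0.10 with 1 array left out, above 0 in 3 of those (0.02, 0.09 and 0.10). ARF6 ran from -0.13 to 0.14 with 1 array left out, above 0 in 3 of those (0.14, 0.04 and 0.0077), and HK1 was -0.059 as the mean of its probes. Over 19 alternatives the list medians ran from 0.10 to 0.19 (interferon), 0.12 to 0.32 (NF-kB cytokines), -0.19 to -0.09 (ATF4), -0.11 to -0.04 (hypoxia) and -0.13 to -0.06 (glycolysis). With median scaling 12 of 43 interferon genes and 10 of 32 NF-kB cytokines were separated upward, where 3.37% of all genes were. Downward were 12 of 42 ATF4, 7 of 35 hypoxia and 6 of 21 glycolysis genes, where 5.79% of all genes were. Of 2326 single-gene values 2315 kept their sign, and of 760 list medians 708 did. Most of these single genes were picked because their sets did not overlap, so leaving out 1 array could not turn their sign. Settings that changed only the filter or the variance prior left the differences as they were. The medians of these 5 lists kept their sign. Genes detected on few arrays, such as TUBB1 outside ARF-1, are measured close to background.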

Other observations

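Genes of antigen presentation on MHC class II were grouped after the data were seen, because HLA-DPA1, a chain of the HLA-DP molecule, was among the 9 called genes. HLA-DPA1 read 9.83, 9.89 and 9.87 on ARF-2 arrays, 9.36, 9.28 and 9.35 on ARF-1 arrays, and 8.66, 8.77 and 8.75 on scramble arrays. It rose by 0.54 ± 0.08 (SE; adjusted p = 0.0464), and both sets were above scramble, by 1.14 on ARF-2 arrays and by 0.60 on ARF-1 arrays. Of 13 tested genes of the group 6 (46.2%) were separated upward and none downward, against 8.53% and 7.27% of all genes, with a median of 0.10. The 6 include HLA-DPA1, which prompted the list, so the share is partly drawn from that call. They also include RFX5 at 0.07 (adjusted p = 0.849) and IFI30 at 0.46 (adjusted p = 0.46), which was detected on 2 of the 3 ARF-1 arrays. HLA-DMB, a chain of the peptide exchange factor HLA-DM, read 9.49, 9.25 and 9.50 on ARF-2 arrays against 9.03, 8.98 and 8.70 on ARF-1 arrays, a difference of 0.51 (adjusted p = 0.172). HLA-DMA, its partner, differed by 0.30 (adjusted p = 0.39), and HLA-DRA, the constant chain of HLA-DR, by 0.28 (adjusted p = 0.337). CD74, the invariant chain, was at 0.10 with overlapping sets. CIITA, the coactivator of these genes, was detected on none of the ARF-2 arrays, on 2 of the 3 ARF-1 arrays and on all 3 scramble arrays. Its mean level was 4.68 on ARF-2 arrays against 4.92 on ARF-1 arrays (adjusted p = 0.76), and on ARF-2 arrays it was at least 1.37-fold lower than on scramble arrays (adjusted p = 0.0138).

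Some signalling and growth lists also had more members separated upward than all genes. Of 23 genes of MAPK feedback and EGFR ligands 6 (26.1%) were separated upward and 2 (8.7%) downward, with a median of 0.05. Over other scalings the upward count was 3 to 6. TGFA, a ligand of the EGF receptor, differed by 0.38 (adjusted p = 0.39), and DUSP4, a phosphatase of MAP kinases, by -0.34 (adjusted p = 0.384). Of 43 E2F and S phase genes 6 (14%) were separated upward and none downward, with a median of 0.07, but with median scaling 1 was separated upward, where 3.37% of all genes were. SGK1, a kinase of the immediate early list, read 9.74, 9.74 and 9.79 on ARF-2 arrays against 9.40, 9.26 and 9.29 on ARF-1 arrays, a difference of 0.44 (adjusted p = 0.165). CCND2, a cyclin of the G1 phase, read 8.07, 8.02 and 7.78 against 8.42, 8.47 and 8.38, a difference of -0.47 (adjusted p = 0.184). The lists of SGK1 and CCND2 went both ways. Of 30 immediate early genes 5 (16.7%) were separated upward and 4 (13.3%) downward, with a median of -0.0085. Of 25 genes of G1 and cell cycle inhibitors 4 (16%) were separated upward and 3 (12%) downward, with a median of -0.04. Over all genes these shares were 8.53% and 7.27%.

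TUBB1 was the only gene called among 16 tested tubulins, a family grouped after the data were seen, and the median was -0.0018. TUBB6 was also separated downward, at -0.37 (adjusted p = 0.368), and TUBB2B was separated upward at 0.21 (adjusted p = 0.678). BCKDHA, the E1 subunit of the branched-chain ketoacid dehydrogenase, read 7.18, 6.91 and 6.93 on ARF-2 arrays against 7.48, 7.71 and 7.66 on ARF-1 arrays, a difference of -0.61 (adjusted p = 0.105). The 13 tested genes of branched-chain amino acid breakdown had a median of -0.02. Of them 1 (7.69%) was separated upward and 2 (15.4%) downward, beside 8.53% and 7.27% of all genes. The 2 were BCKDHA itself and AUH, at -0.24 (adjusted p = 0.568). FGF13, an intracellular fibroblast growth factor homologue, read 6.27, 6.18 and 6.32 against 6.92, 6.79 and 6.75, a difference of -0.56 (adjusted p = 0.075). The other genes lower on ARF-2 arrays by the naming rule were SPACA6 at -0.58, MIR503HG at -0.49, TNFAIP8L1 at -0.43 and NUP37 at -0.41, at adjusted p-values of 0.105 to 0.171.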
